A study of Mus musculus with 8 samples.

Results

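Adhesion G protein-coupled receptors are a family of cell-surface receptors, and 30 mouse genes of the family were followed here in lung myofibroblasts. The members were the 30 genes listed by symbol, matched through their mouse Ensembl identifiers to rows of a count table of 43432 genes, and all 30 were found. Myofibroblasts of the lung are contractile, matrix-producing cells that lay down elastin while the walls of the alveoli form. The study profiled them by RNA sequencing at postnatal day 7 on a C57BL/6 background, with 4 libraries labelled wildtype (control 1 to control 4) and 4 libraries from mice labelled as transgenic for Fra-2 (Fra-2 1 to Fra-2 4), the AP-1 transcription factor encoded by Fosl2. The labels describe Fra-2 as made constitutively and name no promoter, founder line or number of animals. Whether each library is a separate animal is not said, and p-values then measure only how these libraries vary, which may be technical.

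An adhesion receptor joins a long extracellular region, often built of cadherin, EGF, laminin or immunoglobulin modules, to the membrane-spanning part of a G protein-coupled receptor. Most members carry a GAIN domain between these parts, where the protein can cut itself, and the stretch that follows the cut can act as a tethered agonist. Ligands are often fixed in the matrix or on a neighbouring cell, so members are known for sensing contact and tension as well as for coupling to cAMP signalling.

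Values are given in CPM, the count scaled to a library of fixed size by TMM-adjusted totals, which compares libraries for 1 gene. To compare levels between genes, CPM was divided by the length of the merged exons in kilobases (CPM per kb). Totals were 29926239 to 41335957 counts per library. Fosl2 itself measured 104.8, 117, 141 and 118 CPM in control 1 to 4 and 166, 134, 126 and 104 CPM in Fra-2 1 to 4. The groups overlapped for Fosl2 (log2 fold change 0.14, edgeR adjusted p = 0.888), so the second group is called Fra-2-labelled throughout, after its label. All 12 markers of lung myofibroblasts had a mean of at least 1 CPM, and their summed level was 17800 to 19646 CPM in the controls and 17712 to 19778 CPM in the Fra-2-labelled libraries. Within that list Stc1 was called higher and Enpp2 lower (edgeR adjusted p = 0.0302 and 0.0447), and 5 of the 12 had an unadjusted p under 0.05, against 8.71% of all tested genes. Markers of other cells were also read, with sums of 57.4 to 84.6 and 78.3 to 98.2 CPM for 10 endothelial markers and of 83.3 to 124 and 102 to 130 CPM for 11 macrophage and monocyte markers. The sums were 54.6 to 129 and 112 to 207 CPM for 10 epithelial markers and 616 to 812 and 782 to 811 CPM for 8 pericyte markers. For 6 mesothelial markers they were 3.94 to 9.53 and 7.19 to 14.03 CPM. An unadjusted p under 0.05 was seen for 2 of 5 tested mesothelial, 3 of 8 pericyte and 1 of 9 epithelial markers. It was also seen for 1 of 10 endothelial and 0 of 10 macrophage and monocyte markers. The epithelial one was Sftpb, at 17.7 and 32.3 CPM in the group means, which DESeq2 called and edgeR did not (edgeR adjusted p = 0.314). In bulk libraries, fewer cells of a type and less RNA per cell cannot be told apart.

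These cells expressed a small number of the receptors strongly. Of the 30 genes, 14 had a mean of at least 1 CPM over the 8 libraries, 21 passed the filter for testing and Adgrf1 had no read in any library. The members' summed level was 2764 to 3232 CPM in the controls and 2803 to 3190 CPM in the Fra-2-labelled libraries. Adgrg6, Adgre5, Adgrg2, Adgra2, Adgra3 and the latrophilins Adgrl1, Adgrl2 and Adgrl3 held 97.3% to 98.4% of that sum in each library. Per kilobase these 8 genes ranged from 17.1 (Adgra3) to 94.3 CPM per kb (Adgrg6), and the next, Adgrd1, stood at 2.47 CPM per kb. The gap between Adgra3 and Adgrd1 held in every library, where Adgra3 never fell below 16.02 and Adgrd1 never exceeded 3.50 CPM per kb.

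**Figure D1:**
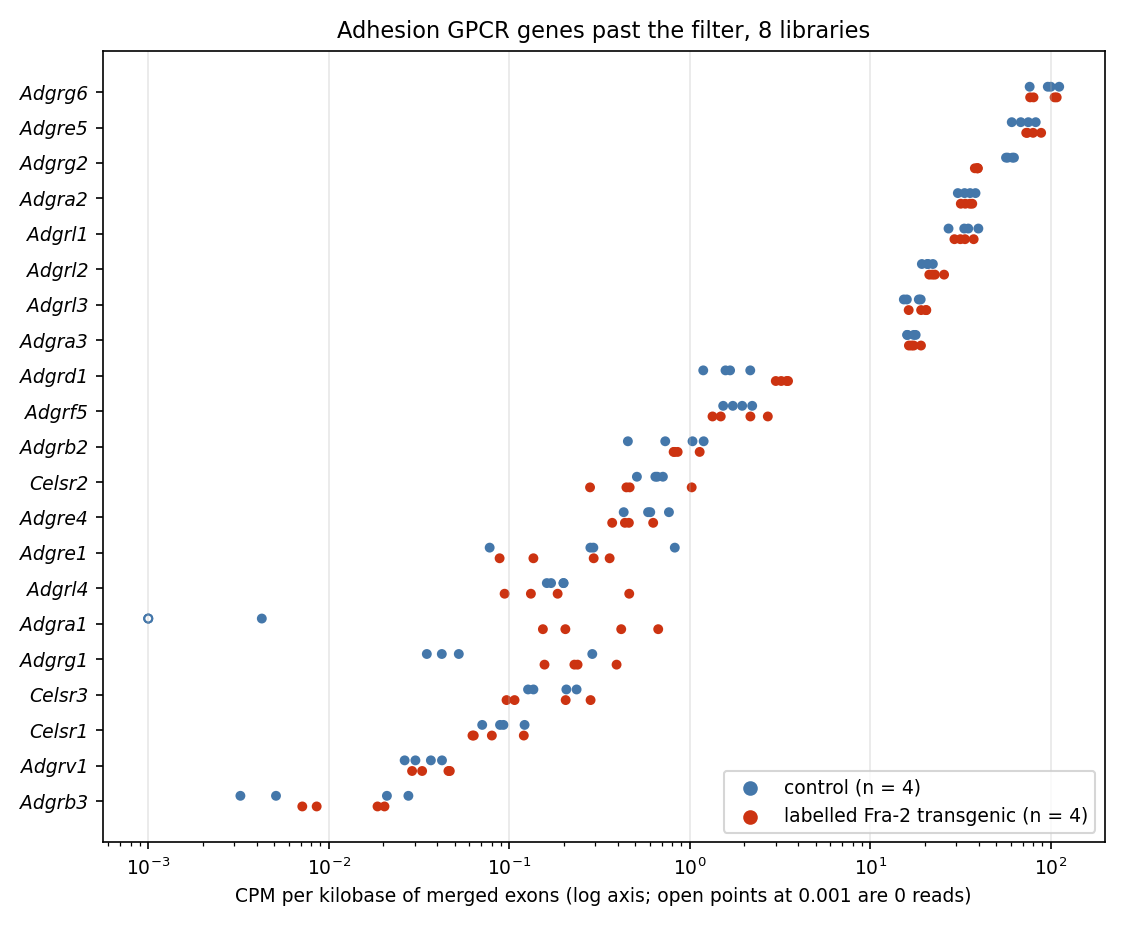
Level of the 21 tested adhesion receptor genes in each library, in CPM per kb of merged exons on a log axis. Each point is 1 library, blue for control and red for Fra-2-labelled, and open points mark libraries with 0 reads. The 8 upper genes lie between 15.3 and 111 CPM per kb, apart from all others, and the groups separate for Adgrg2, Adgrd1 and Adgra1.

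Of the 21 tested members, 3 passed the test. Adgrg2 was lower, and Adgrd1 and Adgra1 were higher, in the Fra-2-labelled libraries. Over the 15422 genes tested with edgeR's quasi-likelihood test, 1.02% passed an adjusted p of 0.05, 0.72% upwards and 0.298% downwards. DESeq2 and limma-voom called the same 3 members, where they called 2.37% and 0.966% of the genes edgeR tested. Groups that did not overlap were seen in 3 of the 21 tested members, the same 3, against 5.76% of all tested genes. Adgra1 passed the filter only through the group in which it is high, so the counts of members are given as a description. The other 18 tested members did not pass, and none of them had an unadjusted p under 0.05. Over all 21 tested members that share was 14.3%, made up of the 3 called genes, against 8.71% of all tested genes.

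**Figure D2:**
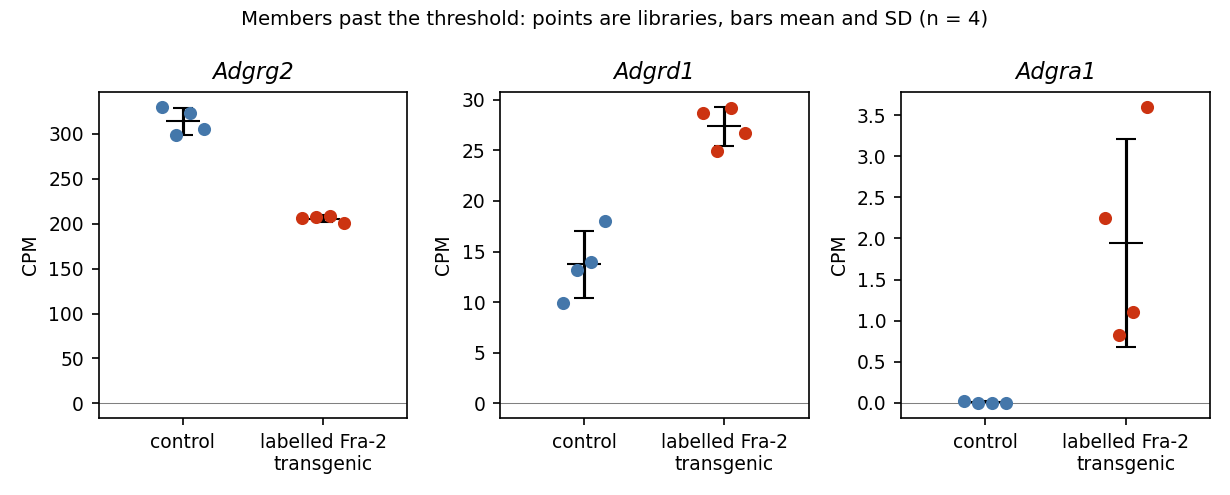
CPM of Adgrg2, Adgrd1 and Adgra1 in the 4 control libraries (blue) and the 4 Fra-2-labelled libraries (red). Points are libraries, bars are the mean and SD, and each vertical axis includes 0. Adgrg2 falls from 298 to 330 CPM to 200.4 to 208 CPM, and Adgra1 is at or near 0 in all controls.

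Adgrg2, an orphan receptor best known from the efferent ducts of the testis, where it serves fluid uptake, was the third most abundant member per kilobase at 49.3 CPM per kb. It measured 330.1, 298, 323 and 305 CPM in control 1 to 4 and 207, 208, 208 and 200.4 CPM in Fra-2 1 to 4. Every Fra-2-labelled library lay below every control, and the 4 values of that group lay within 8 CPM of each other. The means were 314 ± 14.99 and 206 ± 3.58 CPM (SD, n = 4 each). Its log2 fold change came to -0.61 (SE 0.0867, edgeR adjusted p = 0.00262), a fold of 0.655 with a 95% interval of 0.575 to 0.745. Each library held 6525 to 14399 reads on the gene. Adgrg2 (ENSMUSG00000031298) lies on chromosome X, 160390690 to 160498070 of GRCm38 on the plus strand. Its exons overlap an antisense gene, Gm15241, which had at most 0.0954 CPM in any library. Since the gene is X-linked, the sex of the libraries was read from Xist and 4 Y-linked genes, and each group held 2 female and 2 male libraries. With sex as a covariate the adjusted p of Adgrg2 was 0.00808.

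Adgrd1, which couples to Gs and raises cAMP, measured 9.88, 13.1, 13.9 and 18.01 CPM in control 1 to 4. In Fra-2 1 to 4 it measured 28.7, 24.9, 29.2 and 26.7 CPM. The lowest Fra-2-labelled library stood above the highest control, control 4. The mean went from 13.7 ± 3.34 to 27.4 ± 1.93 CPM (SD, n = 4 each), with the log2 fold change at 0.996 (SE 0.168, edgeR adjusted p = 0.00959). The fold was 1.99, with a 95% interval of 1.55 to 2.56, on 431 to 1009 reads per library. Without 1 library at a time its adjusted p ran from 0.00261 to 0.0477. Adgrd1 (ENSMUSG00000044017) lies on chromosome 5, 129096750 to 129204599 of GRCm38 on the plus strand. A pseudogene, Rps16-ps2, lies within its span, at 0.63 and 0.848 CPM in the group means. Per kilobase the receptor remained far below the 8 abundant members in both groups, at 1.65 and 3.29 CPM per kb.

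Adgra1 was read almost only in the Fra-2-labelled libraries. This receptor, best known from the brain, lacks the GAIN domain that most members carry. Control 1 held 1 read and control 2, 3 and 4 held 0, while Fra-2 1 to 4 held 78, 26, 35 and 136 reads. Scaled to depth, these were 2.25, 0.827, 1.10 and 3.60 CPM in Fra-2 1 to 4, and 0.0229 CPM in control 1. All 4 Fra-2-labelled libraries were above all controls, and Fra-2 4 was the highest and Fra-2 2 the lowest of them. With 275 reads against 1, the ratio of the pooled levels was 291, with an exact 95% counting interval of 51.8 to 11544 that covers counting error only. The edgeR adjusted p was 0.000615 (n = 4 each, higher in 4 of 4), and it ran from 0.000331 to 0.00554 without 1 library at a time. The gene could enter the test only through the group in which it is high, so these values describe the reads above and add no support to them. Per kilobase Adgra1 stood at 0.361 CPM per kb in the Fra-2-labelled libraries, between Adgre4 at 0.474 and Adgrg1 at 0.255 in the same libraries. It was not tested under a filter of 1 CPM in 4 libraries. The summed level of 7 Schwann cell and neuronal markers was 2.87 to 3.79 CPM in the controls and 3.20 to 4.50 CPM in the Fra-2-labelled libraries. The part of such cells in the Adgra1 reads was not tested. Adgra1 (ENSMUSG00000025475) lies on chromosome 7, 139834174 to 139878088 of GRCm38 on the plus strand, and no annotated exon of another gene overlaps its exons.

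Genes next to Adgra1 were also examined, because its reads appeared in 1 group. Of 24 tested genes within 1 Mb, 1 was called higher and 0 lower in edgeR, where 0.72% and 0.298% of all tested genes were. An unadjusted p under 0.05 was seen for 4 (16.7%, against 8.71% of all tested genes). The called neighbour was Sprn, which encodes a prion-related protein and lies 273 kb away. It measured 3.46, 1.42, 3.19 and 3.55 CPM in control 1 to 4 and 9.51, 7.73, 12.03 and 9.56 CPM in Fra-2 1 to 4, so the groups did not overlap (log2 fold change 1.74, edgeR adjusted p = 0.0055). Inpp5a, an inositol phosphate phosphatase gene 255 kb away on the other side, measured 32.6, 34.2, 33.6 and 34.1 CPM in control 1 to 4 and 47.6, 44.6, 45.1 and 44.1 CPM in Fra-2 1 to 4. The groups of Inpp5a did not overlap either, but it did not pass in edgeR (log2 fold change 0.43, adjusted p = 0.0697). DESeq2 called 4 of these 24 genes, where it called 2.37% of all the genes edgeR tested. All 4 were higher: Sprn, Inpp5a, Lrrc27 and Cyp2e1. These names were chosen after their values were seen. Around Adgrd1 and Adgrg2, edgeR called 0 of 24 and 0 of 8 tested genes within 1 Mb. There, 0 genes had an unadjusted p under 0.05, and DESeq2 and limma-voom called 0.

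**Figure D3:**
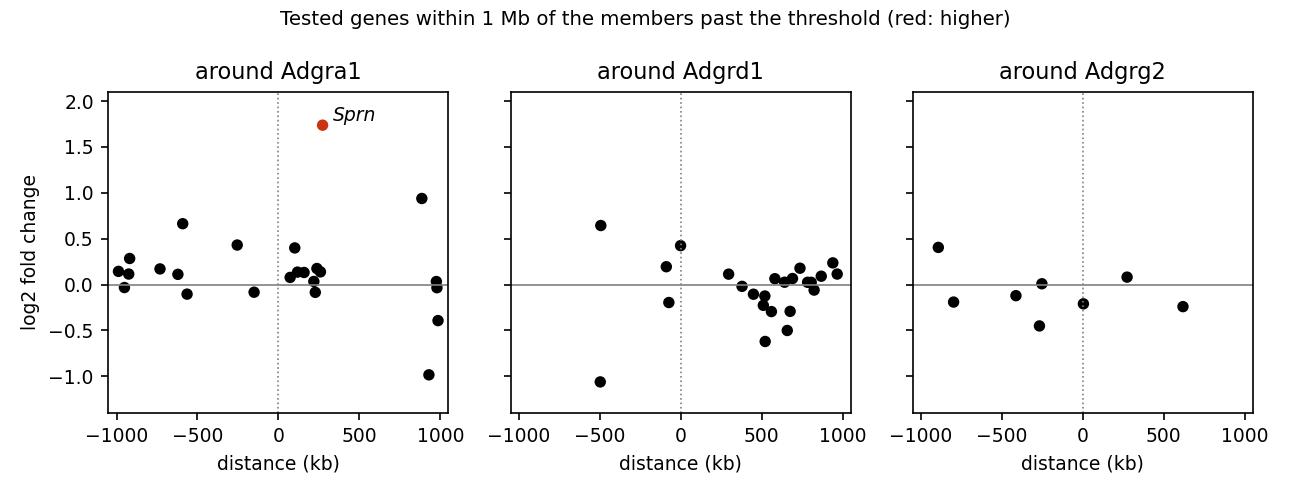
Log2 fold change of tested genes within 1 Mb of Adgra1, Adgrd1 and Adgrg2 against their distance in kb from the member, which stands at 0 and is not drawn. Each point is 1 gene, red where it was called higher. Sprn, at 1.74, is the called point, and the 8 neighbours of Adgrg2 run from -0.45 to 0.40.

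Fra-2 belongs to AP-1, a family that binds the motif TGANTCA. For this reason the sequences just before the starts of called members, and of Adgrg1, are shown here. RefSeq's table for GRCm38.p6 gave start sites for 22 of the 30 members, with 26 windows of 250 bases before a start. Of the members that passed, it held Adgra1 and Adgrg2, and not Adgrd1. The motif, which reads the same on both strands, was found in 3 of the 22 members (Adgrg1, Adgrf4 and Adgrg4), and in 7.82% of all 27025 genes in the table. It was not in the windows of Adgra1 (chr7:139833924-139834173) or Adgrg2 (chrX:160390440-160390689), both on the plus strand, which says only that these letters are not in these 250 bases. Of the 3 genes with the motif, only Adgrg1 passed the filter. Adgrg1 was not called and is shown because it has the motif. Another of its windows, chr8:94976859-94977108, does not hold the motif and is not printed. The window with the motif is printed from chr8:94984149-94984370 on the plus strand, 222 bases that end before an annotated exon. Capitals mark the motif, which begins 141 and 59 bases before the RefSeq start of that window. A match is a description and not evidence of binding.
Adgra1: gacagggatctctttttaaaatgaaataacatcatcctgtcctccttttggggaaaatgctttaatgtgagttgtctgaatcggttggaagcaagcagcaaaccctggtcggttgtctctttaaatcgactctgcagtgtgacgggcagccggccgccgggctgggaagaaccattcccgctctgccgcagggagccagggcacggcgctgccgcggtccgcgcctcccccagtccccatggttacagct
Adgrg2: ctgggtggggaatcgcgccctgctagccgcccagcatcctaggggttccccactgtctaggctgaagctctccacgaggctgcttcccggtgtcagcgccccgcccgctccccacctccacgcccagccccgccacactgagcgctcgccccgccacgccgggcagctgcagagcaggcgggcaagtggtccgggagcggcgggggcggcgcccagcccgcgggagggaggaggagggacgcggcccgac
Adgrg1: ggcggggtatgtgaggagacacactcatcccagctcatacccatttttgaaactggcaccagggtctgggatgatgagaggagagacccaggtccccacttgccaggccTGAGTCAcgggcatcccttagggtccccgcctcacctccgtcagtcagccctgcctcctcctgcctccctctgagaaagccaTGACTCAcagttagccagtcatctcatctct

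The base composition of these windows differed. G and C made up 56.4% of the Adgra1 window, with 15 CpG dinucleotides, and 75.6% of the Adgrg2 window, with 26. The Adgrg1 window with the motif, at 59.2% over its 250 bases, held 4.

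Adgrg6 and Adgrg1 are receptors for matrix proteins. Adgrg6, which binds collagen IV and laminin-211 and is known for its part in myelination by Schwann cells, was the most abundant member and exceeded 98.2% of tested genes in CPM per kb. It measured 934, 1223, 1178 and 1363 CPM in control 1 to 4 and 1319, 982, 1284 and 940.3 CPM in Fra-2 1 to 4. High and low libraries stood in both groups, and the log2 fold change stood at -0.05 (SE 0.138, edgeR adjusted p = 0.964). The 95% interval of the fold, 0.784 to 1.18, leaves out a doubling or a halving.

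Adgrg1, a receptor for collagen III and transglutaminase 2, measured 0.229, 0.285, 0.189 and 1.56 CPM in control 1 to 4. In Fra-2 1 to 4 it measured 1.30, 2.13, 0.85 and 1.24 CPM. Control 4 lay among the Fra-2-labelled libraries, apart from the other 3 controls. With all libraries the log2 fold change of Adgrg1 came to 1.29 (SE 0.654, edgeR adjusted p = 0.64). Without 1 library at a time the edgeR adjusted p of Adgrg1 ran from 0.0474 to 0.886. The lowest value came from leaving out control 4, the library that stood apart, where the log2 fold change was 2.54. Every other such fit gave an adjusted p of at least 0.666, so the call rests on the choice of that library. The gene rests on 6 to 67 reads per library. It lies on chromosome 8 between Adgrg5 and Adgrg3, all 3 within 121.6 kb, and its neighbours held 3 and 23 reads over all 8 libraries.

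Some ligands of Adgrg6 and Adgrg1 were abundant. Col3a1, the main known ligand of Adgrg1, measured 6570 and 7101 CPM in the group means, and the collagen IV genes Col4a1 and Col4a2 measured 1291 and 1388 CPM and 1291 and 1421 CPM. Of the 12 genes of this list, 1 was called lower and 0 higher in edgeR, where 0.298% and 0.72% of all tested genes were. An unadjusted p under 0.05 was seen for 4 (33.3%, against 8.71% of all tested genes). The called gene was Col4a6, a minor collagen IV chain, which fell from 16.7 ± 0.864 to 8.07 ± 2.94 CPM (log2 fold change -1.05, edgeR adjusted p = 0.0489). Leaving out Fra-2 1 or Fra-2 2 kept the call, and leaving out any of the remaining 6 libraries ended it (adjusted p up to 0.152), as did a fit without robust dispersion (0.058). Col4a5, its partner chain, measured 39.9 ± 6.25 and 27.0 ± 4.07 CPM (edgeR adjusted p = 0.106), and Tgm2, transglutaminase 2, 47.4 ± 13.6 and 75.8 ± 12.7 CPM (edgeR adjusted p = 0.138). DESeq2 called all 3 of these genes, where it called 2.37% of all the genes edgeR tested. Col4a5 and Tgm2 were named after their values were seen.

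The latrophilins Adgrl1, Adgrl2 and Adgrl3, receptors for teneurins and FLRT proteins that are best known at synapses, were all abundant. Adgrl3 measured 272, 283, 330 and 338 CPM in control 1 to 4 and 363, 289.9, 340 and 361 CPM in Fra-2 1 to 4. Adgrl2 measured 274, 296, 316 and 295 CPM in the controls and 314, 302, 324 and 364 CPM in the other group. Adgrl1 measured 341, 299.9, 285 and 233 CPM in the controls and 288, 321, 271 and 251 CPM in the other group. The groups overlapped for all 3 genes. The log2 fold changes were 0.15 for Adgrl3, 0.14 for Adgrl2 and -0.04 for Adgrl1 (edgeR adjusted p = 0.816, 0.78 and 0.977). Their 95% intervals kept the fold between 0.815 (the lower bound of Adgrl1) and 1.30 (the upper bound of Adgrl3). Per kilobase, Adgrl1 was the highest of them at 33.3 CPM per kb, followed by Adgrl2 at 21.9 and Adgrl3 at 18.1. This is the reverse of their order in mean CPM (286, 311 and 322). It rests on merged exon lengths of 8587, 14198 and 17750 bases, which may include unused exons. The ranges of Adgrl1 (27.1 to 39.7) and Adgrl2 (19.3 to 25.7) did not overlap between libraries, while those of Adgrl2 and Adgrl3 (15.3 to 20.5) did. These ranges do not cover error in the lengths.

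Adgrl4, the remaining member of the latrophilin group, is a receptor of endothelial cells. It stood at 0.917, 0.741, 0.915 and 0.782 CPM in control 1 to 4 and 0.432, 0.604, 0.85 and 2.12 CPM in Fra-2 1 to 4. Fra-2 4 was the highest, and the same library had the highest sum of endothelial markers, 98.2 CPM. The other libraries did not follow that order: Fra-2 1, with the lowest Adgrl4, had the second highest sum (84.8 CPM), and control 1, with the second highest Adgrl4, had the lowest (57.4 CPM). Cdh5, the endothelial cadherin, led those markers with a mean of 26.1 CPM, and none of the 10 was at 0 in all libraries. The part of endothelial cells in this value was not tested.

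Ligands of the latrophilins were present as well. Tenm4, a teneurin and the most abundant gene of the list, measured 596 ± 21.8 and 608 ± 90.1 CPM. Of 14 genes, 11 were tested, and edgeR called 0. An unadjusted p under 0.05 was seen for 5 (45.5%, against 8.71% of all tested genes), of which 4 were higher and 1 lower. DESeq2 called 2, Flrt1 and Flrt3, where it called 2.37% of all the genes edgeR tested. Flrt3, an FLRT adhesion protein named after its values were seen, measured 18.5 ± 3.62 and 30.5 ± 5.08 CPM with no overlap between groups (log2 fold change 0.73, edgeR adjusted p = 0.0573). Over the 11 genes the log2 fold change had a median of 0.31, while that of all 15422 tested genes was -0.01.

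Adgre5, also known as CD97, a receptor for CD55, Thy1 and integrins that is found on leukocytes and on many other cells, was the second most abundant member at 75.3 CPM per kb. It measured 256, 228, 282 and 310.2 CPM in control 1 to 4 and 299.9, 278, 275 and 332 CPM in Fra-2 1 to 4, and the groups overlapped. The fold was 1.10 with a 95% interval of 0.933 to 1.30 (edgeR adjusted p = 0.84). Its exons overlap Ddx39 on the opposite strand (18.7 and 20.6 CPM), and no library step that marks strand is named, so some reads of the 2 genes cannot be told apart. Ptprc, the CD45 gene of leukocytes, measured 8.57 and 8.52 CPM in the group means.

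The other receptors of the EGF-TM7 type were scarce. Adgre1, the macrophage antigen F4/80, measured 0.252, 0.911, 0.947 and 2.68 CPM in the controls and 0.951, 0.286, 0.441 and 1.16 CPM in the Fra-2-labelled libraries. Control 4 was the highest of all libraries, with a sum of macrophage and monocyte markers of 124 CPM. That sum was higher still in Fra-2 1 (130 CPM), and it was 122 CPM in Fra-2 2, where Adgre1 was at 0.286 CPM. Single markers of the sum differed in their order. Ptprc, like Adgre1, was low in control 1 (4.26 CPM) and Fra-2 2 (6.39 CPM) and highest in control 4 (11.3 CPM). Cd68 was instead highest in control 1 (42.4 CPM) and lowest in control 4 (13.0 CPM). Both markers were picked after their values were seen. Adgre4, another macrophage receptor, measured 2.11, 2.68, 2.05 and 1.503 CPM in the controls and 2.19, 1.53, 1.61 and 1.30 CPM in the other group. Neither passed (edgeR adjusted p = 0.864 and 0.885). Lyz2 led the macrophage markers with a mean of 47.2 CPM, none of the 11 was at 0 in all libraries, and the part of these cells in Adgre1 and Adgre4 was not tested.

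Among 9 ligand genes of Adgre5 and Adgrf5, 8 were tested, and Itga5, the fibronectin receptor subunit, was called higher. It rose from 173 ± 8.23 to 236 ± 19.7 CPM (log2 fold change 0.45, edgeR adjusted p = 0.0385), and 0 were lower. Over all tested genes, 0.72% were called higher and 0.298% lower. Leaving out control 4 or Fra-2 2 kept the call, and leaving out any of the remaining 6 libraries ended it (adjusted p up to 0.152). It was also lost with sex as a covariate, at 0.0766. Cd55, the ligand for which Adgre5 is best known, measured 8.81 and 10.8 CPM, and Thy1 1.41 and 1.82 CPM. Itgb1, the integrin beta-1 subunit, was at 1936 and 1970 CPM. DESeq2 also called Itgb3, the integrin beta-3 subunit, at 29.3 and 44.7 CPM (edgeR adjusted p = 0.173). Over all the genes edgeR tested, DESeq2 called 2.37%. Cd55, Thy1, Itgb1 and Itgb3 were named after their values were seen.

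Adgra2 and Adgra3 were abundant and close to equal between groups. Adgra2, which works with Reck as a co-receptor for Wnt7 ligands in the vessels of the brain, measured 177, 192, 221 and 206 CPM in control 1 to 4. In Fra-2 1 to 4 it measured 183, 212, 206 and 194 CPM. The fold was 0.999, with a 95% interval of 0.862 to 1.16 (edgeR adjusted p = 0.998). Adgra3, an orphan receptor linked to Wnt and planar polarity signalling, measured 130.2, 145, 141 and 129.97 CPM in the controls and 155, 137, 133 and 141 CPM in the other group. Its fold was 1.04 (0.904 to 1.19, edgeR adjusted p = 0.949).

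Reck was expressed beside Adgra2, at 301 ± 45.1 and 350 ± 29.97 CPM, whereas the Wnt7 genes were nearly absent. Wnt7a measured 0.0316 and 0.172 CPM and Wnt7b 0.0894 and 0.036 CPM. In this list of 7 genes, edgeR called 0 of 5 tested, 0 had an unadjusted p under 0.05, and DESeq2 called 0. The binding partners of Adgrd1 were present, with Plxdc2 at 391 ± 59.7 and 443 ± 42.6 CPM and Ptk7 at 117 ± 21.3 and 130 ± 11.6 CPM. Neither of these 2 passed in edgeR, at an unadjusted p under 0.05 or in DESeq2, with adjusted p of 0.789 and 0.863 in edgeR.

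Adgrf5, a receptor that limits the surfactant pool in alveolar type II cells and is also made by endothelium, was the one member of its subfamily with a mean above 1 CPM. It measured 17.6, 15.6, 19.98 and 13.8 CPM in the controls and 12.0, 19.5, 13.4 and 24.4 CPM in the Fra-2-labelled libraries. Its groups overlapped and it did not pass (edgeR adjusted p = 0.983). Fra-2 4, the highest library for Adgrf5, also had the highest sums of epithelial (207 CPM) and endothelial markers. Fra-2 1, the lowest, had 112 and 84.8 CPM. Control 1 had the lowest sums of all libraries (54.6 and 57.4 CPM), while its Adgrf5 level of 17.6 CPM was within the range of the others. Sftpc, the surfactant protein C gene, led the epithelial markers with a mean of 54.0 CPM, none of the 10 was at 0 in all libraries, and the part of these cells was not tested. Adgrf4, Adgrf2, Adgrf1 and Adgrf5 lie within 802.7 kb of chromosome 17. Of these neighbours, Adgrf4, Adgrf2 and Adgrf1 held 8, 26 and 0 reads over the 8 libraries, against 4785 for Adgrf5. With 0 reads, Adgrf1 could have a pooled level of up to 0.0107 CPM, a limit of 3 counts that covers counting error only.

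The Celsr genes, large cadherin-type receptors of planar cell polarity, were read at low levels. Celsr2 measured 7.61, 5.87, 8.18 and 7.43 CPM in the controls and 3.23, 11.8, 5.13 and 5.35 CPM in the Fra-2-labelled libraries, where both the lowest and the highest value lay. Celsr3 measured 2.50, 2.85, 1.64 and 1.53 CPM in the controls and 2.48, 3.40, 1.29 and 1.16 CPM in the other group. Celsr1 ranged from 0.689 to 1.34 CPM over all libraries. None of the 3 passed (edgeR adjusted p = 0.944, 0.993 and 0.958). Of their partners, Vangl2 stood at 38.2 and Fat4 at 23.6 CPM per kb, against 0.593 for Celsr2. Fat4, a giant protocadherin, measured 374 ± 38.1 and 435 ± 27.9 CPM. Of the 12 partner genes, edgeR and DESeq2 called 0, and 2 had an unadjusted p under 0.05, Fat4 upwards and Dvl2 downwards. That is 16.7%, against 8.71% of all tested genes.

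Adgrb2, a receptor of the brain angiogenesis inhibitor type, measured 4.75, 7.75, 6.72 and 2.95 CPM in the controls. In Fra-2 1 to 4 it measured 5.56, 5.28, 5.35 and 7.36 CPM, within the range of the controls (edgeR adjusted p = 0.973). Adgrb3, a synaptic receptor for C1q-like proteins, and Adgrb1, which helps in the uptake of dying cells, held 74 and 53 reads over all libraries. C1q-like genes were scarce as well, and C1ql2 had 0 reads. Of 7 tested genes among BAI ligands and effectors, edgeR and DESeq2 called 0. An unadjusted p under 0.05 was seen for 1 (14.3%, against 8.71% of all tested genes). Rac1, the small GTPase at the end of the uptake pathway, led this list at 487 ± 83.1 and 496 ± 58.9 CPM.

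Adgrv1, the very large receptor of the hair bundles of the inner ear, ranged from 0.655 to 1.16 CPM over all libraries. Across its long exons this was 0.0363 CPM per kb, the second lowest level among the tested members. Of its complex, Myo7a was the most abundant at 8.87 ± 1.36 and 10.2 ± 1.56 CPM. For the 3 tested genes of the complex, edgeR and DESeq2 called 0 and 0 had an unadjusted p under 0.05. The members Adgrb1, Adgrf1, Adgrf2, Adgrf3, Adgrf4, Adgrg3, Adgrg4, Adgrg5 and Adgrg7 were not tested, and each held between 0 and 53 reads over all 8 libraries.

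**Figure D4:**
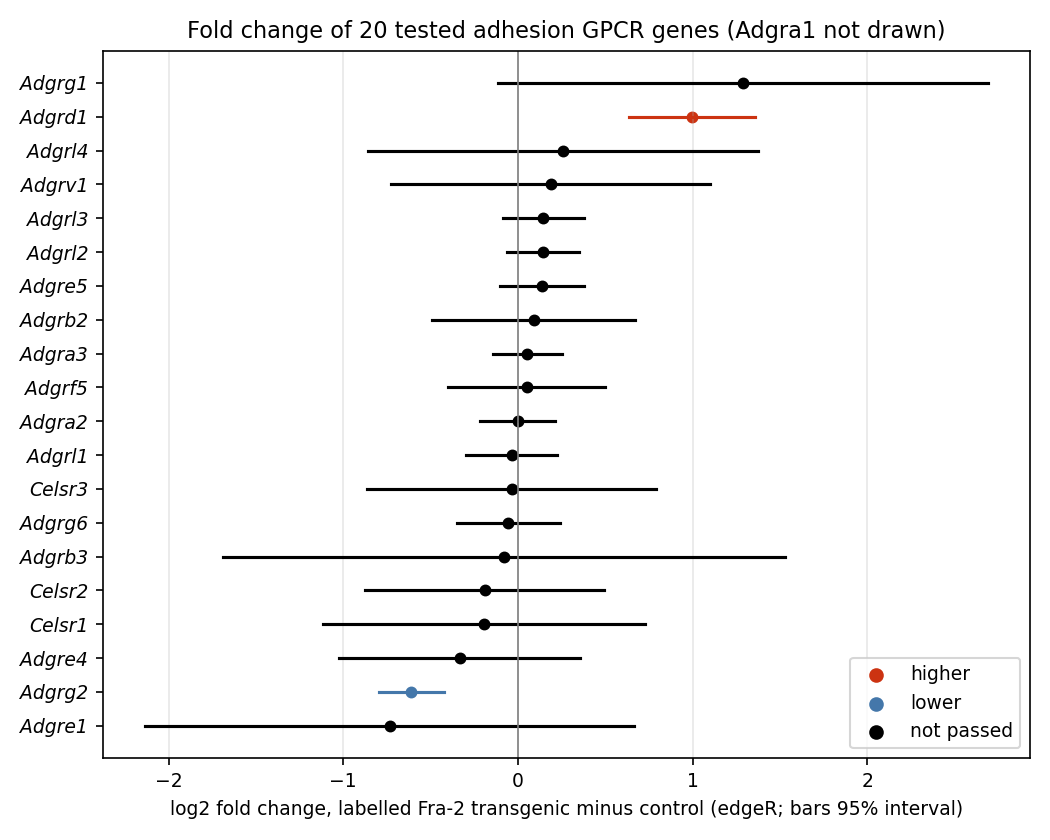
Log2 fold change of 20 tested members, Fra-2-labelled libraries against controls, with 95% intervals from edgeR. Adgra1 is left out because its controls held 1 read. Adgrd1 (0.996, red) and Adgrg2 (-0.61, blue) passed, and the intervals widen for scarce genes such as Adgrb3 and Adgre1.

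Downstream of the receptors, none of the tested genes that carry their signals passed in edgeR. Of 13 G protein alpha subunits, 12 were tested, edgeR and DESeq2 called 0, and 0 had an unadjusted p under 0.05. Gnai2, an inhibitory subunit, led at 419 ± 68.5 and 464 ± 37.7 CPM. Gna13, a subunit to which several members couple, measured 404 ± 43.3 and 409 ± 33.0 CPM. Gnas, the stimulatory subunit to which Adgrd1 and Adgrg6 couple, was read at only 11.0 ± 5.37 and 9.21 ± 3.25 CPM. Its locus is known to hold overlapping genes, so this count is uncertain, but their effect on it was not tested. Among 12 adenylyl cyclases and guanine nucleotide exchange factors edgeR called 0, and Arhgef12, an exchange factor for small GTPases, led at 338 ± 16.3 and 354 ± 13.3 CPM. In that list 1 gene, Adcy8, a calcium-stimulated adenylyl cyclase, had an unadjusted p under 0.05 and was called by DESeq2. Of all the genes edgeR tested, 8.71% had such a p and DESeq2 called 2.37%. Adcy8 measured 5.31 ± 2.12 and 11.9 ± 2.12 CPM with no overlap between groups (log2 fold change 1.16, edgeR adjusted p = 0.0793), and was named after its values were seen.

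**Figure D5:**
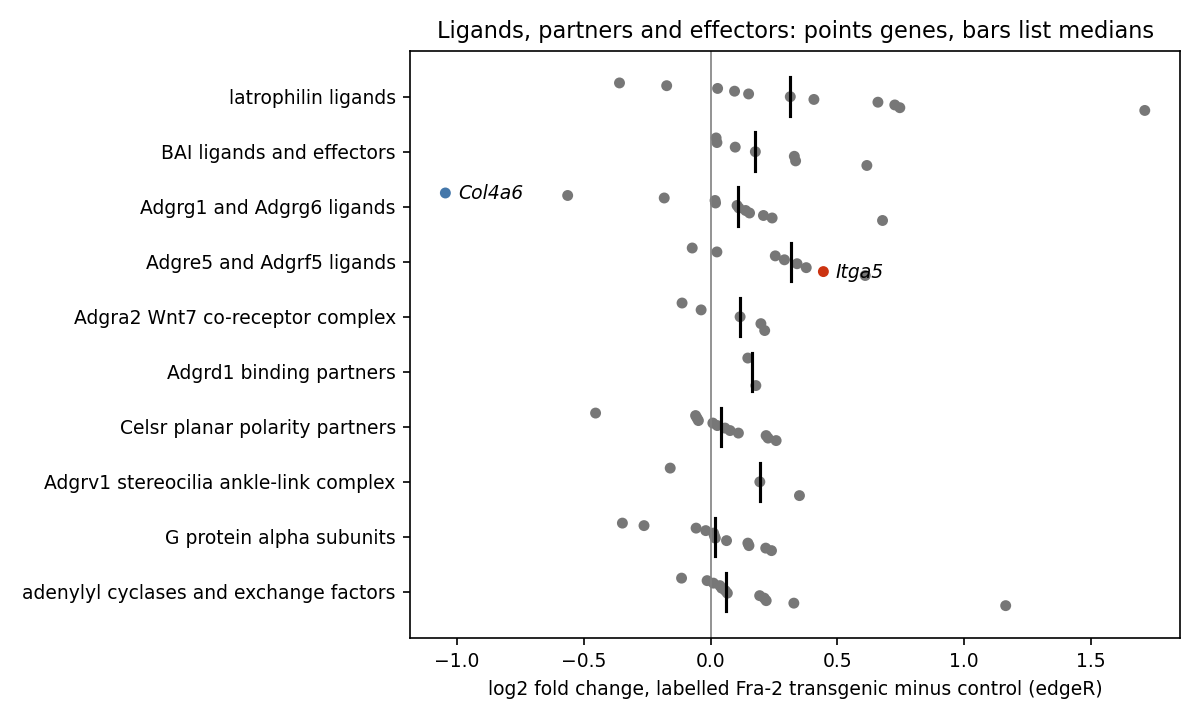
Log2 fold change of the tested ligands, partners and effectors by list, Fra-2-labelled libraries against controls. Each point is 1 gene, red or blue where called higher or lower, and each bar is the median of its list. Itga5 and Col4a6 are the called genes, and the median of the latrophilin ligands is 0.31.

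Over all 97 genes of these lists, 84 were tested. Of them 1 was called higher and 1 lower in edgeR, where 0.72% and 0.298% of all tested genes were. An unadjusted p under 0.05 was seen for 15 (17.9%, against 8.71% of all tested genes). DESeq2 called 8, and over all the genes edgeR tested it called 2.37%. Their median log2 fold change was 0.11, against 0.05 for the 21 tested receptors and -0.01 for all tested genes.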

How the data were processed

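The authors deposited raw counts per gene, 1 column for each of the 8 libraries. Per the labels' protocols, mRNA from 50 ng of total RNA was amplified as cDNA (NuGEN Ovation V2) and made into libraries with Nextera XT, and amplification from little RNA adds spread. No step that marks the strand is named. The submitters' processing notes name GRCh38, a human build, while the identifiers are mouse genes. For aligner, counter and annotation the entry is: not given in the sources used here. Symbols, positions and merged exon lengths came from GENCODE M21 (GRCm38), and 42462 of 43432 identifiers had a symbol. Lengths merge all annotated transcripts, so CPM per kb understates genes with long unused exons.

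Counts were tested in R 4.3.3 with edgeR 4.0.16: filterByExpr (minimum count 10, minimum total 15), TMM, robust quasi-likelihood F-test, two-sided, without covariates, with Benjamini-Hochberg adjustment over 15422 genes at 0.05. Each SE follows from F, as the unsigned log2 fold change over its root. Library totals of 29926239 to 41335957 set the counting error. Library pairs within a group differed by 39.7 to 175 in chi-square per gene, so all were kept. The fit was tested on simulated data for this comparison (15422 genes, 200 of them changed). The changed genes were drawn from those with a mean of at least 1 CPM. The fit called 22% of 1.5-fold, 76% of 2-fold, 88% of 4-fold and 92% of 8-fold changes, so a small change can be missed. These rates do not cover members below that level. Alternatives were RLE and upper-quartile scaling, other filters, DESeq2 1.42.0, limma-voom (3.58.1), a fit without robust dispersion, a replicate block, sex, and leaving out each library. Members and lists were chosen with earlier results of these data known. All members are accounted for, those with a mean of at least 1 CPM by library. Of each partner list, the called genes, or where none was called its most abundant gene, are named by rule, and every other partner or neighbour named was chosen after its values were seen.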

Additional observations from a re-analysis of the deposited data

Results flagged for a closer look

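In each group of 4 libraries, the gap of the highest or lowest library to its nearest neighbour was compared with the range of the group, for 21 members in 2 groups. Among these 42 sets 3 stood past Dixon's 95% critical value, and chance flags about 1 set in 20. For Adgrg1, control 4 stood apart at 1.56 CPM, with the other controls at 0.189 to 0.285 CPM. For Adgrb2, Fra-2 4 stood apart at 7.36 CPM, with the other libraries labelled Fra-2 transgenic at 5.28 to 5.56 CPM. For Adgra1, control 1 stood apart at 0.0229 CPM, which is 1 read, with the other controls at 0. A set with a single value above 0 is always flagged, so the chance rate does not apply to it.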

How the results depend on the processing

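Adgrg2 and Adgrd1 kept their direction and their call under all 17 alternatives. Adgra1 kept its own under the 16 that tested it. With 1 read in the controls, it could pass a count filter only through the group in which it is high, so this adds no support. Under a filter of 1 CPM in 4 libraries Adgra1 was not tested, which left 1 member called higher. Without 1 library at a time, 2 to 3 members were called higher (the third was Adgrg1, without control 4) and 1 lower. The number of expressed members moved from 14 to between 10 and 20 under other thresholds.

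Over all genes, DESeq2 called 266 higher and 104 lower, against 111 and 46, and leaving out 1 library gave 50 to 153 and 22 to 52. For partner genes, the 1 higher and 1 lower became 3 and 2 without a filter and 6 and 2 in DESeq2. The number higher was 0 with sex as a covariate, and the number lower was 0 without robust dispersion. Leaving out 1 library gave 0 to 4 and 0 to 1. The median log2 fold change of tested members was -0.0081 without a filter, which tests more genes, and 0.026 to 0.13 without 1 library. The cause of the other changes was not tested.

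The titles number the libraries 1 to 4 in each group. Same-numbered libraries had correlations of 0.0018, 0.219, 0.0797 and 0.31 between their deviations from the group means, and control 1 correlated best with Fra-2 2. The samples share only a number. With the replicate number as a block, 137 genes were higher and 53 lower, 2 and 1 members were called, and 2 partner genes were called in each direction. Genes of few reads, such as Adgrb3, Adgre1 and Adgrg1, have 95% intervals that include a change of 2-fold.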
